A study of Mus musculus with 2 samples.

Results

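Rrad encodes a small GTPase of the RGK family that restrains the L-type calcium channel of heart muscle, and it is described here with 9 genes of cardiac calcium handling: Cacna1c, Slc8a1, Atp2a2, Pln, Sln, Ryr2, Casq2, Hrc and Camk2d. The genes were found by platform symbol or older synonym, which gave 10 of 16390 named genes, each with 1 probe, so probes of a gene could not be compared. Rrad was chosen by the measured difference between its responses to caloric restriction in the 2 genotypes, and its values in those comparisons are therefore a description and support nothing.

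The RNA was total RNA of hearts, from male mice on a C57BL/6J background, aged 6 months and kept for 3 months on caloric restriction by 40% (CR) or on free feeding (ad libitum, AL). The 4 groups were cardiomyocyte-specific Sirt1 knockout mice under CR, the same knockout under AL, control mice under CR and control mice under AL, with 1 heart each. Sirt1 is a NAD-dependent deacetylase, and the design asks how the heart responds to restriction without it in the muscle cells. What drives the deletion in cardiomyocytes is not given in the sources used here. Each of 2 two-colour oligonucleotide arrays paired a CR heart, labelled with Cy3, with an AL heart of the same genotype, labelled with Cy5, and the dyes were not swapped. No difference can be set against the spread between mice, and no p-value is given. Diet and dye, and genotype and array, cannot be told apart in a single comparison. The difference of the 2 responses cancels a dye effect shared by the arrays.

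Each contraction starts when L-type channels, whose pore is Cacna1c, admit a little calcium, and this opens the ryanodine receptor Ryr2 to release the store of the sarcoplasmic reticulum. The pump SERCA2, encoded by Atp2a2, refills the store against the brake of phospholamban (Pln) and, mainly in the atria of the mouse, sarcolipin (Sln), while the exchanger encoded by Slc8a1 moves calcium out of the cell. Casq2 and Hrc bind calcium inside the store, and the kinase Camk2d phosphorylates Ryr2 and Pln. Rrad binds the beta subunits of the L-type channel and lowers its current until adrenergic signalling through protein kinase A releases it.

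Signals are log2 values after background correction and normalization, and they are compared between hearts for 1 gene at a time, because probes of different genes cannot be set side by side. A difference was called when it reached 1.5-fold (0.585 on the log2 scale). A gene was detected where its spot exceeded the blank spots by 2 SD. In all, 74.0% to 80.7% of probes were detected per heart, and 8 of the 10 genes were detected in all 4 hearts. Slc8a1 was not detected in either knockout heart and Sln was not detected in the knockout CR heart. Log2 CR over AL ratios of 24 spots of each positive control had SDs of 0.0731 and 0.0883 on the knockout array and of 0.0447 and 0.0582 on the control array, which describes spot noise and not mice. Of 10 cardiomyocyte markers on the array, 9 were detected in all 4 hearts, and Tcap was not. In bulk heart RNA, fewer cells of a type and less RNA per cell cannot be told apart. Sirt1 itself was at 7.51 and 7.07 in the knockout CR and AL hearts and at 7.53 and 7.11 in the control CR and AL hearts, and the place of its probe relative to the deleted part is not known here, so it does not check the genotype.

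**Figure D1:**
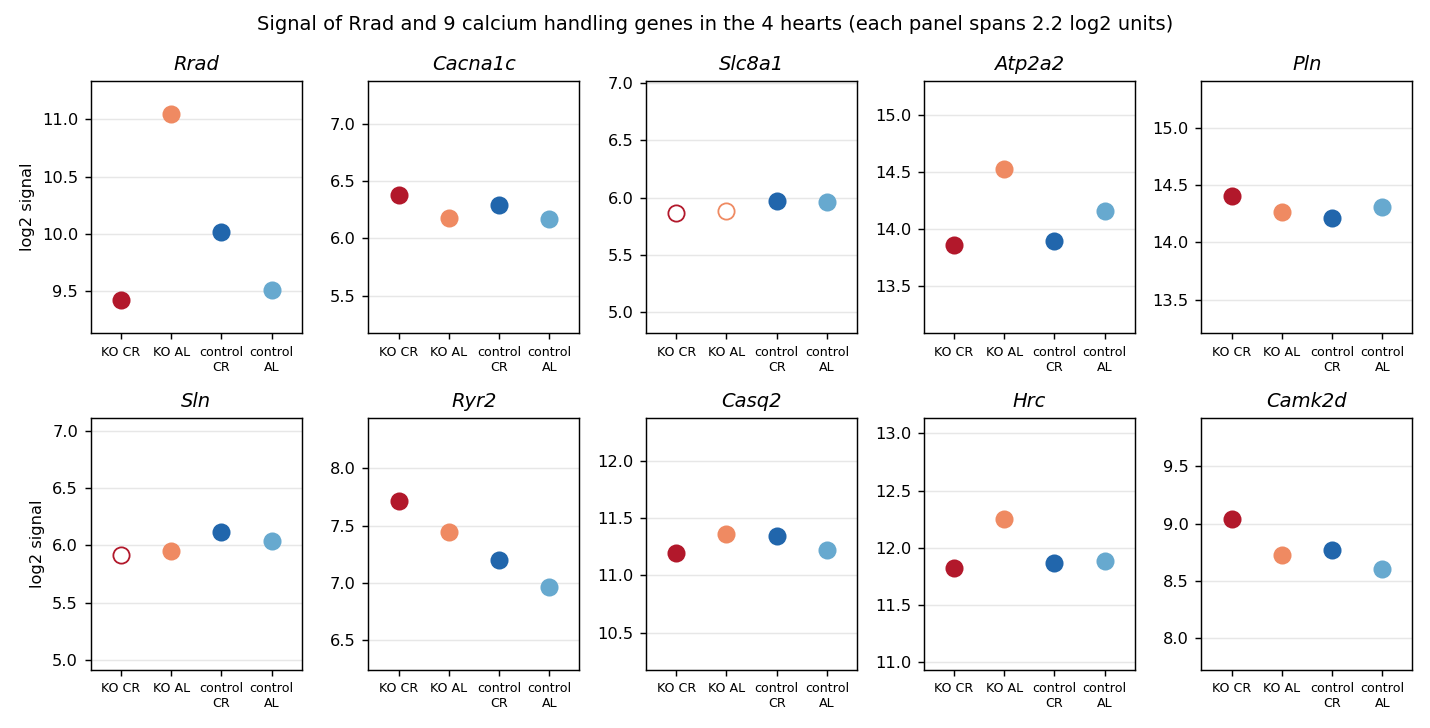
Normalized log2 signal (vertical axis, 2.2 units in every panel) of the 10 genes in the knockout CR, knockout AL, control CR and control AL heart, 1 point per heart, with open points where the gene was not detected. Rrad lay between 9.42 and 11.05, and the knockout AL heart was the highest for Rrad, Atp2a2, Casq2 and Hrc. For Casq2 the knockout AL and control CR hearts were nearly level, at 11.36 and 11.34.

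For Rrad the log2 signal was 9.42 in the knockout CR heart and 11.05 in the knockout AL heart, against 10.02 in the control CR heart and 9.51 in the control AL heart. The knockout AL heart was thus the highest and the knockout CR heart the lowest, with the 2 control hearts between them. The knockout CR and control AL hearts, neighbours in this order, cannot be ordered beyond a spread between mice that is not known. In scanner units before normalization the spot read 694 (knockout CR), 1849 (knockout AL), 1221 (control CR) and 693 (control AL).

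The CR over AL value of Rrad was -1.63 in the knockout hearts (3.09-fold lower with CR) and 0.50 in the control hearts (1.42-fold higher with CR). The direction was therefore opposite in the 2 genotypes, and the knockout response minus the control response was -2.13. This was the lowest value of 11698 genes detected in all 4 hearts, the value by which the gene was chosen. Set against control, the knockout heart was higher by 1.53 under AL and lower under CR, at -0.60. The authors' deposited table gave Rrad ratios of -1.70 for the knockout and 0.44 for the control array.

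The scanner also read the area around each spot, and around Rrad this area was as bright as the spot on the knockout array. It read 705 at the CR dye and 2055 at the AL dye on the knockout array, against 930 and 572 on the control array. The area therefore ran the same way as the spot, with log2 CR over AL of -1.54 in the knockout and 0.70 in the control pair. The 8 adjacent spots were dimmer, at 79.5 to 506 (CR dye) and 35.6 to 437 (AL dye) on the knockout array and at 74.1 to 631 and 32.5 to 406 on the control array. When this local background was subtracted, little of the Rrad signal was left on the knockout array, with log2 signals of 6.00 under CR and 5.58 under AL, against 8.31 and 7.48 in the control hearts. The knockout response was then 0.43 and the control response 0.83, in the same direction, the difference of the responses shrank to -0.40, and the knockout heart was lower than the control heart under AL (-1.90) and CR (-2.30). Subtracting the mean of the blank spots instead left a knockout response of -1.73 and a difference of -2.23. Whether the brightness around the spots is background or signal was not tested.

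**Figure D2:**
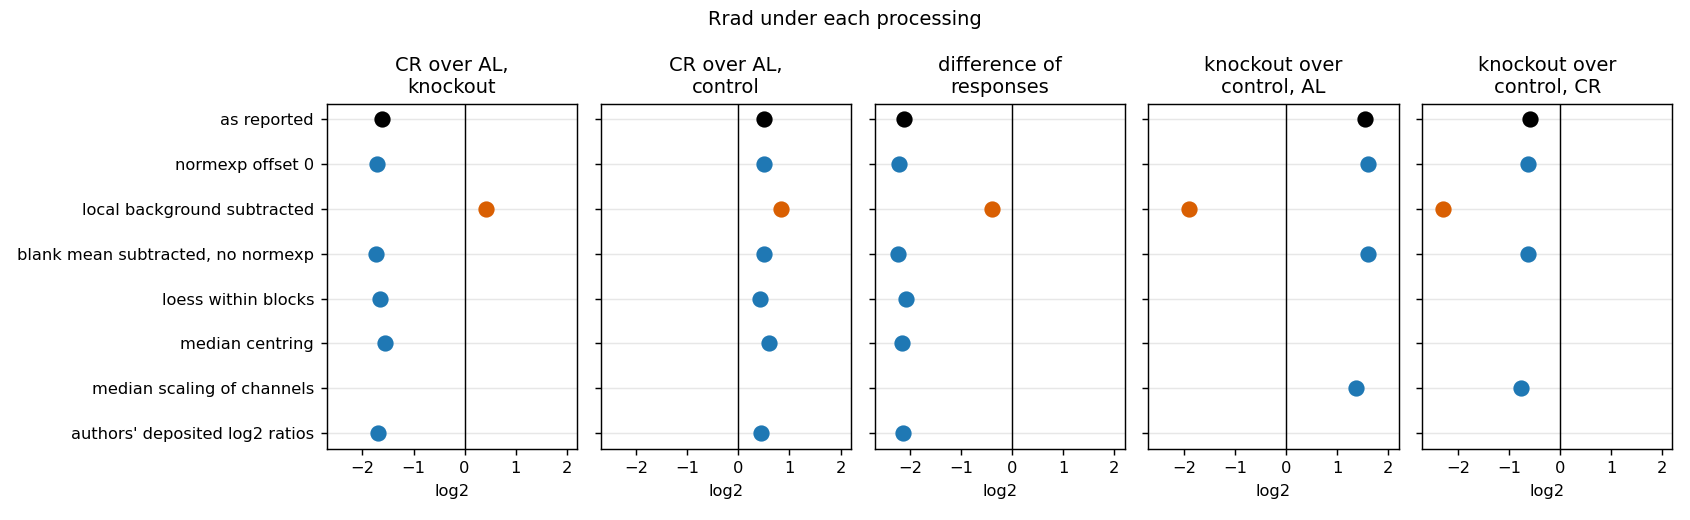
Log2 values of Rrad in the 5 comparisons (panels) under each processing (rows), 1 point per value, with the reported value on the top row. All settings lie close together except subtraction of the local background (orange), which gives a knockout response of 0.43 in place of -1.63 and an AL comparison of the genotypes of -1.90 in place of 1.53.

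**Figure D3:**
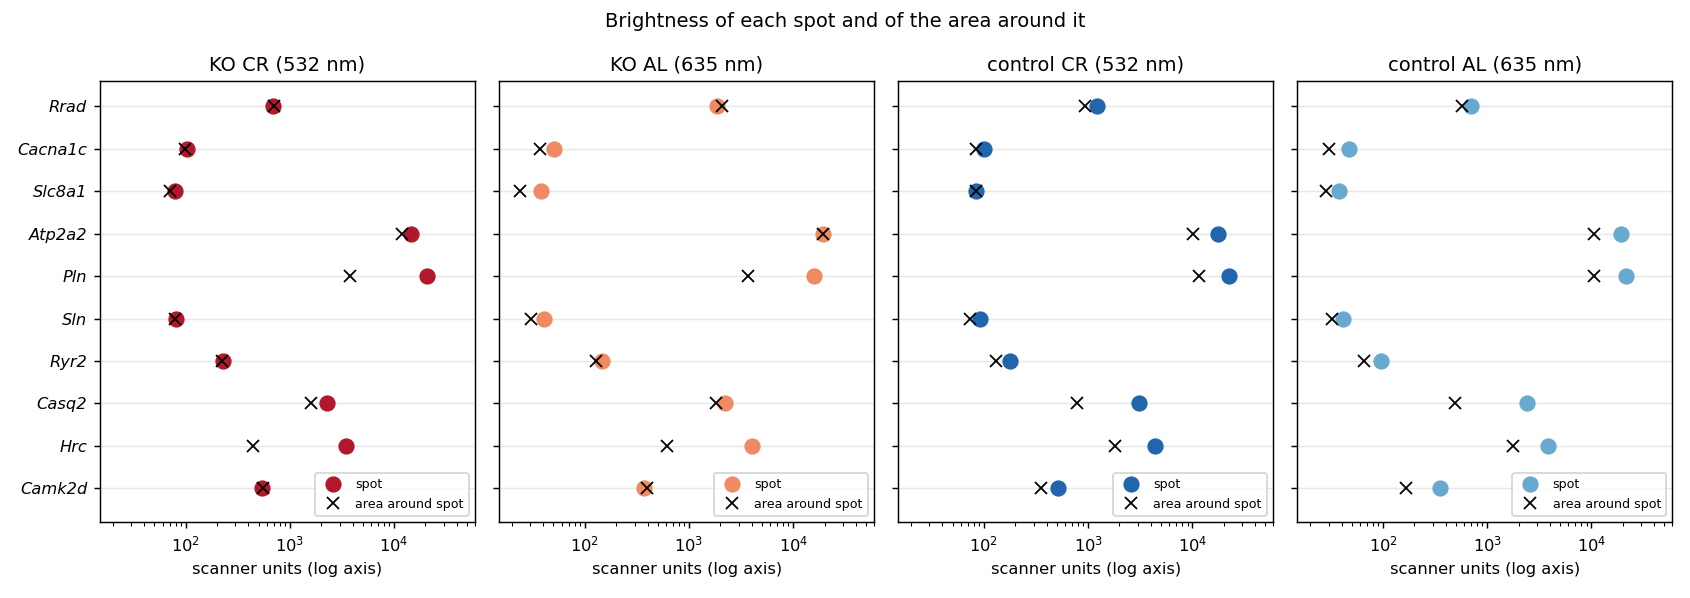
Brightness of the spot (filled points) and of the area around it (crosses) for each gene in scanner units on a log axis, 1 panel per heart. In the knockout AL heart the area around the Rrad spot read 2055 and the spot 1849, whereas for Hrc the area read 610 and the spot 4044.

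The other RGK GTPases, which also act on calcium channels, were Rem1, Gem and Rem2. None of them was called in any comparison in which it was detected. Gem had CR over AL values of -0.21 in knockout and -0.05 in control hearts, and was higher in the knockout AL heart by 0.23. With the local background subtracted its CR over AL values were -0.19 and -0.04, and the genotypes differed by -0.02 under AL. Rem1 had CR over AL values of -0.05 in knockout and 0.07 in control hearts. Rem2 was not detected in the knockout CR heart.

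Among the 5750 named genes detected in all hearts at or above the median signal, 6 were picked as most like Rrad by the root mean square difference of the 4 log2 signals, each gene centred on its own mean. They were Dbp, a clock output factor (0.271), Egr1, an immediate early transcription factor (0.287), Ciapin1, a cytosolic iron-sulfur protein (0.294), the basement membrane collagen Col4a2 (0.320), B2m, the light chain of MHC class I (0.339), and the matricellular protein Sparc (0.367). With only 4 hearts this is a description, and 1 heart, the knockout AL heart, held the highest value of each gene. Dbp, the nearest by this measure, was at 9.63 in the knockout CR, 10.74 in the knockout AL, 10.34 in the control CR and 9.89 in the control AL heart. Like Rrad, it was lower with CR in the knockout pair (-1.11) and higher with CR in the control pair (0.45). Egr1 was high in the knockout AL heart only, at 8.05 there against 6.56 in the knockout CR, 6.41 in the control CR and 6.50 in the control AL heart. With the local background subtracted, the knockout response was -1.40 for Dbp and -0.96 for Egr1, in the same direction as without it, whereas that of Rrad was 0.43.

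**Figure D4:**
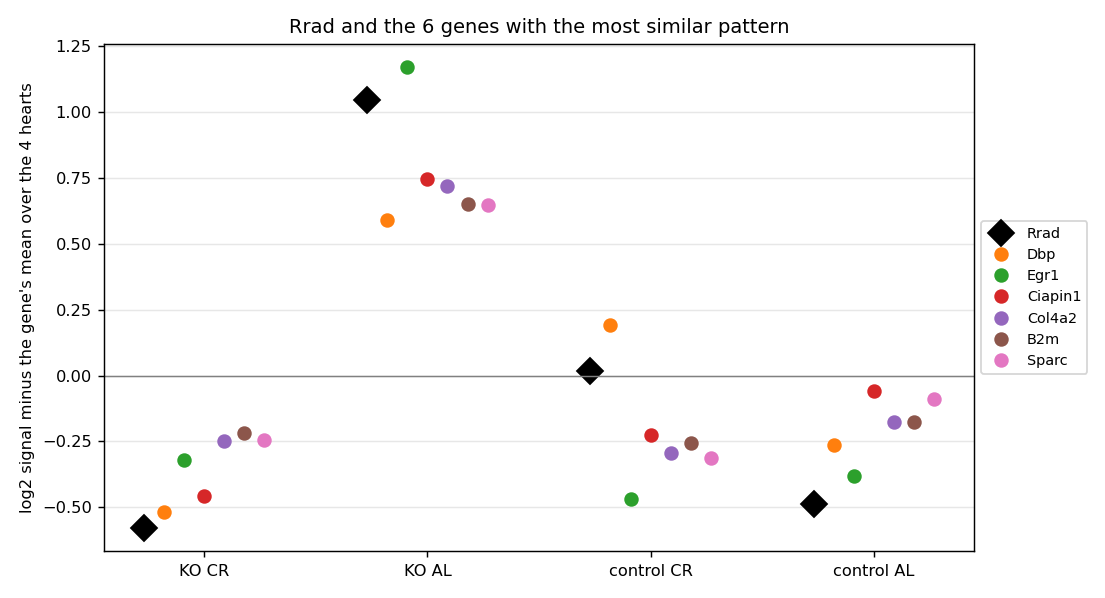
Log2 signal minus each gene's own mean over the 4 hearts (vertical axis) for Rrad (diamonds) and the 6 genes nearest to it (circles), by heart. All 7 genes have their highest point in the knockout AL heart, and Rrad and Dbp alone lie above their mean in the control CR heart.

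Immediate early genes and markers of other cells were read in the same hearts. Of 10 immediate early genes, 6 were lower with CR in the knockout pair. Of these 3 were called (Egr1 at -1.49, Junb at -0.69 and Fos at -0.63), while Jun was called higher at 0.70. Over all genes 1.52% were called in this response. With the local background subtracted Egr1 was at -0.96, Junb at -0.39, Fos at -0.26 and Jun at 0.37. Sums of lists are scanner signal over the blanks, not normalized between dyes or arrays, and cannot be set against the log2 values. The immediate early list summed to 1116 units in the knockout CR and 1078 in the knockout AL heart. It summed to 895 and 733 in the control CR and AL hearts. In the control pair 6 were lower and none was called, where 1.15% of all genes were called. Macrophage markers were higher in the knockout AL than in the control AL heart in 6 of 6, with a summed signal over blank of 1650 against 955 scanner units, and in 6 of 6 under CR, with 986 against 867. Fibroblast markers were higher in 7 of 8 under AL, 4 of them called (3208 against 3168 units). Under CR they were higher in 7 of 8, 1 of them called beside 1 called lower (2709 against 2847 units). Over all genes 52.5% were higher in the knockout under AL and 50.9% under CR, with 4.36% and 2.5% called. With the local background subtracted Col1a1 (0.62) and Lum (1.77) stayed past 1.5-fold under AL. The called Col1a2 (0.43) and Tcf21 (-0.09) did not, and Col3a1 turned from 0.35 to -0.91. The macrophage marker Cd68 turned to -0.15 under CR. All markers of both lists were detected in every heart. Of 8 skeletal muscle markers on the array, 5 were detected in all hearts. The fast skeletal myosin Myh1 was detected in none, and skeletal actin Acta1, which the heart also makes, was higher in the knockout heart by 2.87 under AL. Under AL 4 of 7 skeletal markers were higher, with a median of 0.04, and Acta1 alone was called. The skeletal list, most of whose signal was Acta1, summed to 3354 units in the knockout AL and 585 in the control AL heart, and to 2220 and 1016 under CR. The cardiomyocyte markers were higher in the knockout AL heart in 7 of 9, 3 of them called (Myh6 at 1.53, Mybpc3 at 0.94 and Ttn at 0.65). With the local background subtracted these 3 were at 1.12, -0.75 and 0.73, and with median scaling of channels at 1.24, 0.62 and 0.42. The difference of the responses was below 0 in 8 of 9, where 49.0% of all genes were above 0. With the local background subtracted the difference turned from -0.27 to 0.24 for Mybpc3 and from -0.22 to 0.003 for Ttn. The other genes below 0 stayed below 0, with Myh6 at -0.21 in place of -1.02. The cardiomyocyte sum, most of it from a few bright probes, was 205588 units in the knockout AL and 208284 in the control AL heart. The brightest of these probes, Myl2, read 62401 and 65197 units there, near the highest reading of 65535, which limits the comparison. Under CR the sum was 196497 and 199467. The part of these lists in the Rrad values was not tested.

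Of the calcium handling genes, 2 of 8 detected were called in the knockout response, Rrad and Atp2a2, both lower with CR, where 1.52% of 12142 genes were called. In the control response 0 of 10 were called, where 1.15% of 12658 genes were. With 1 heart a group neither count has a test. Rrad was chosen by its difference of responses, which is made from its values in the other comparisons. Nothing is therefore read from its calls in any comparison. Apart from Rrad, Atp2a2 alone was called in the knockout response, and no member in the other comparisons. The difference of the responses was called for Rrad alone among 8, against 0.889% of 11698 genes. Between the genotypes Rrad alone was called under AL (of 9, against 4.36% of 12783 genes) and under CR (of 8, against 2.5% of 11957 genes). The median over the genes detected was -0.01 in the knockout and 0.10 in the control response, beside medians of 0.0002 and 0.0041 over all genes. At 2-fold Rrad alone was called in the knockout response (0.264% of genes), the difference (0.12%) and under AL (0.563%), and no member in the control response (0.103%) or under CR (0.301%).

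**Figure D5:**
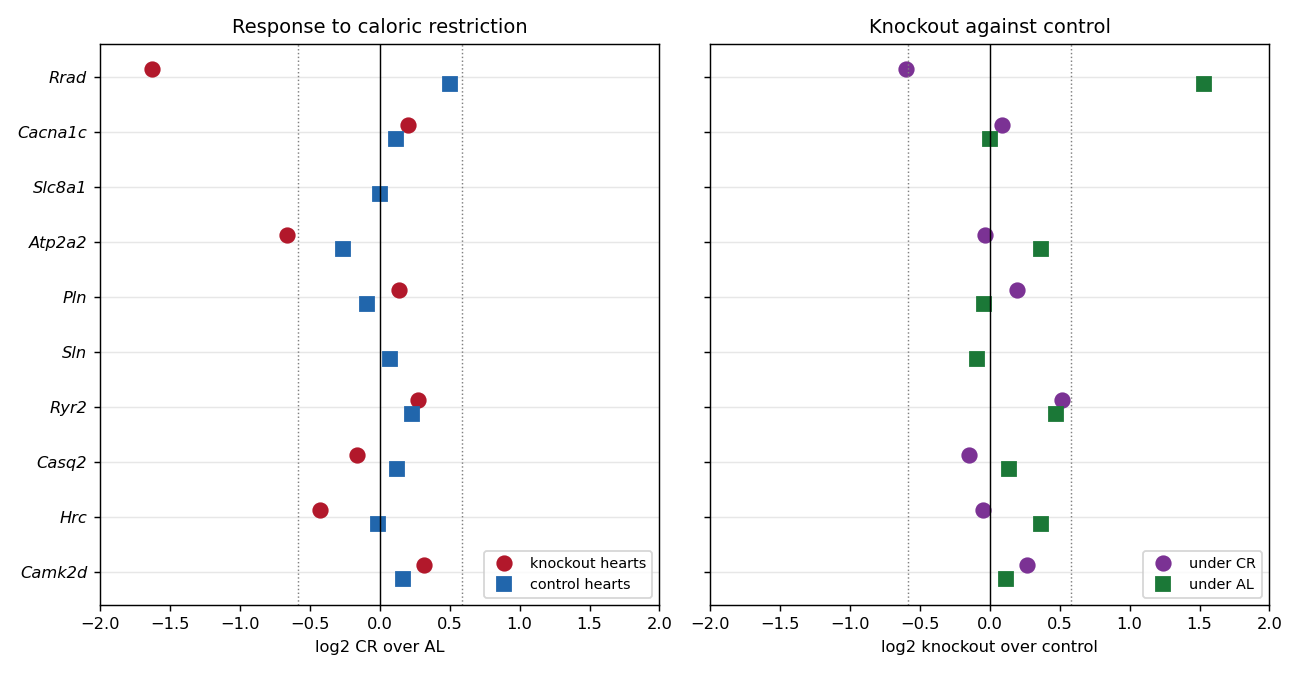
Log2 CR over AL in knockout (red circles) and control hearts (blue squares), left, and log2 knockout over control under CR (purple circles) and AL (green squares), right, for each gene detected in both hearts of a comparison. Dotted lines mark 1.5-fold, and apart from Rrad only Atp2a2 passes one, at -0.66 in the knockout response.

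Cacna1c, the pore of the L-type channel that Rrad restrains, was dim and nearly level. Its log2 signal was 6.38 in the knockout CR and 6.18 in the knockout AL heart, against 6.29 and 6.17 in the control CR and AL hearts. CR over AL was 0.20 in the knockout and 0.12 in the control pair, and the genotypes differed by 0.00 under AL and 0.09 under CR. The spots stood at most 27.7 scanner units above the blanks in any heart, and the size of the ratio depended on the background correction. It was 0.72 in the knockout and 0.46 in the control pair in the authors' deposited table, and 0.73 and 0.44 with the blank mean subtracted, so the knockout value passed 1.5-fold there.

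Slc8a1, the sodium-calcium exchanger, lay at the limit of detection. Its spots were 3.24 (CR) and 3.20 (AL) units above the blanks in the knockout hearts, not detected, against 8.64 and 5.74 in the control hearts, detected. The bound this gives is at least 1.04-fold lower in the knockout heart under CR and at least 1.05-fold lower under AL. Both bounds lie at the detection floor, set 1 array against the other, and on the log2 scale (0.06 and 0.08) are no larger than 0.0883, the wider SD of control spots on the knockout array. With the local background subtracted Slc8a1 was higher in the knockout hearts, by 0.08 under CR and 0.07 under AL. The control CR over AL value was 0.01.

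Atp2a2, the calcium pump of the store, was at 13.86 in the knockout CR and 14.52 in the knockout AL heart, against 13.90 and 14.16 in the control CR and AL hearts. The knockout AL heart was the highest, as for Rrad. CR over AL was -0.66 in the knockout pair, 1.58-fold lower with CR, and -0.26 in the control pair, a difference of -0.40. The knockout value was short of 1.5-fold with median centring (-0.52), with loess within blocks (-0.55) and in the authors' deposited table (-0.57). In the authors' deposited table the control value was -0.48 and the difference -0.09. The AL heart of the knockout was above that of the control by 0.36, or by 0.07 when channels were scaled by their medians, and below it at -6.37 with the local background subtracted. Under CR the value was -0.04, or -0.33 and -1.36 with these settings. As for Rrad, the area around the knockout AL spot was as bright as the spot (19379 against 19398 units), and subtracting it turned the knockout response to 4.77. The spots of all 10 genes stayed below the highest reading of 65535, the brightest being Pln at 22274 units.

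Pln, which inhibits the pump, differed little between the hearts. Its log2 signal was 14.40 in the knockout CR and 14.26 in the knockout AL heart, against 14.21 and 14.31 in the control CR and AL hearts. CR over AL was 0.14 in the knockout and -0.09 in the control pair, opposite in sign to each other and, in the knockout, to the pump. The difference of the responses was 0.23, and 0.56 in the authors' deposited table. The area around the Pln spot was 18.2% (CR) and 23.3% (AL) as bright as the spot in the knockout hearts, against 52.6% and 48.5% in the control hearts. With it subtracted the responses were 0.16 and -0.09. The knockout hearts then lay above the control hearts by 0.60 (AL) and 0.85 (CR), in place of the reported -0.04 and 0.19. With channels scaled by their medians the values between the genotypes were -0.37 (AL) and -0.13 (CR). With loess within blocks the control response was -0.45 and the difference of the responses 0.58.

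Sln was 5.22 units above the blanks in the knockout CR heart, not detected, and 5.63 in the knockout AL heart, against 16.4 and 9.12 in the control CR and AL hearts. The bound under CR was at least 1.15-fold lower in the knockout heart, and under AL, where both hearts were detected, the value was -0.09, or -0.66 with the blank mean subtracted. In the knockout pair the bound was at least 1.03-fold lower with CR, which is open to dye bias. On the log2 scale (0.04) it is smaller than 0.0731, the narrower SD of control spots on the knockout array. With the local background subtracted the knockout response of Sln was 0.02. Sln is mainly an atrial gene in the mouse, and the atrial light chains Myl7 and Myl4 were lower in the knockout hearts by far more, at -3.95 and -2.47 under AL and -4.06 and -2.71 under CR. Of the 9 atrial markers, Sln among them, 4 were higher and 5 lower in the knockout under AL, and Nppa was higher by 0.99. Under CR 3 of 7 detected were higher and 4 lower, with Nppa higher by 1.95. With the local background subtracted Nppa was at 0.90 under AL and at 0.52 under CR, the latter short of 1.5-fold. The summed signal over blank of the list, not normalized, was 2361 units in the knockout AL and 3200 in the control AL heart. Under CR it was 4995 and 3982. Most of the sum in the knockout hearts was Nppa, whose spot read 2032 units under AL and 4652 under CR. In the control hearts the Nppa spot read 1176 and 1459 units. The part of the list in the Sln values was not tested.

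Ryr2, the release channel, was higher in the knockout hearts under both diets, short of 1.5-fold. Its log2 signal was 7.71 in the knockout CR and 7.44 in the knockout AL heart, against 7.20 and 6.97 in the control CR and AL hearts. Both knockout hearts lay above both control hearts, with differences of 0.47 (AL) and 0.51 (CR). Within each genotype the CR heart lay above the AL heart, by 0.27 in the knockout and 0.23 in the control pair, so the difference of the responses was only 0.04. The values between the genotypes were 0.71 and 0.73 with a normexp offset of 0, past 1.5-fold, and -0.23 and -0.54 with the local background subtracted. A difference between the arrays cannot be told apart from the genotype.

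Casq2 and Hrc, which bind calcium inside the store, were both lower with CR in the knockout pair. Casq2 was at 11.19 in the knockout CR and 11.36 in the knockout AL heart, against 11.34 and 11.22 in the control CR and AL hearts. Its responses of -0.16 and 0.13 gave a difference of -0.29, and the control response was -0.02 in the authors' deposited table. With the local background subtracted the knockout response turned to 0.52. Set against control, the knockout heart was at 0.14 under AL and -0.15 under CR. These values were -0.10 and -0.39 with channels scaled by their medians, and -1.57 and -1.23 with the local background subtracted.

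Hrc was at 11.82 in the knockout CR and 12.25 in the knockout AL heart, against 11.87 and 11.88 in the control CR and AL hearts. With the reported processing the knockout AL heart alone stood apart, and the others lay between 11.82 and 11.88. The responses were -0.42 and -0.01, a difference of -0.41. In the authors' deposited table they were -0.38 and -0.17, a difference of -0.21. The area around the Hrc spot was 15.1% as bright as the spot in the knockout AL heart, against 111% for Rrad and 99.9% for Atp2a2. With it subtracted, the knockout response of Hrc was again -0.42 and the difference was -0.67. The knockout AL heart lay above the control AL heart by 0.37, by 0.10 with channels scaled by their medians, and by 1.35 with the local background subtracted. Under CR the value was -0.05, or -0.31 and 0.69 with these settings, the last past 1.5-fold.

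Promoter sequences are shown for Hrc and Casq2, which were lower with CR in the knockout pair, and for Pln, which was not. Each is the 250 bases before the gene start from RefSeq (GRCm38.p6), 5′ to 3′ on the strand of the gene, with the table holding promoters of 7 of the 10 genes. The windows are chr7:45335019-45335268 (plus strand) for Hrc, chr3:102086165-102086414 (plus strand) for Casq2 and chr10:53337436-53337685 (plus strand) for Pln. Capitals mark every match, on either strand, to TATAAA, to CCAAT, to CACGTG, to AGATAA, to the MEF2 motif or to the CArG box, and no matches overlapped.
Hrc: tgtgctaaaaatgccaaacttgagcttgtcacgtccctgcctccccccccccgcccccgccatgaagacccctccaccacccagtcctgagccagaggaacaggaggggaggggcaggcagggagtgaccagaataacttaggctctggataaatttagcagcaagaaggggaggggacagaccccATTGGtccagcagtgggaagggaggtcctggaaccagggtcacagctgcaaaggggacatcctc
Casq2: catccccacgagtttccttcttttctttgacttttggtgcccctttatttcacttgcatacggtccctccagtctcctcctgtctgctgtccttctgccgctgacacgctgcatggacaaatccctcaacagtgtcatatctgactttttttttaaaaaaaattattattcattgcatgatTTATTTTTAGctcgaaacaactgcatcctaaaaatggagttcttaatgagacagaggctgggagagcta
Pln: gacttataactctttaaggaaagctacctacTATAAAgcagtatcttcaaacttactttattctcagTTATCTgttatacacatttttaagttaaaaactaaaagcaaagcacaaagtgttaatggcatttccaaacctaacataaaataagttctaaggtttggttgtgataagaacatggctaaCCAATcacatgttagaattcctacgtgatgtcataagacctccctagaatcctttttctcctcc
Hrc and Pln each held a CCAAT match beginning 64 bases before the start, a motif in 33.8% of the 32851 promoter windows of the table. Casq2 held a MEF2 match beginning 69 bases before the start, which 2.92% of windows hold. Pln also held TATAAA (12.4% of windows) at 219 and AGATAA (9.99%) at 183 bases before the start. No match to CACGTG (6.02%) or the CArG box (1.47%) was in these windows. Hrc and Casq2 thus shared none of the motifs searched.

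Camk2d, the calmodulin-dependent kinase, was at 9.04 in the knockout CR and 8.73 in the knockout AL heart, against 8.77 and 8.61 in the control CR and AL hearts. It was higher with CR in both pairs, by 0.32 and 0.17, and higher in the knockout than in the control heart under AL (0.12) and CR (0.27). None of these was called. With the local background subtracted the control response was -0.21 and the genotypes differed by -2.13 under AL and -1.52 under CR. The area around the spot was 101% (CR) and 107% (AL) as bright as the spot on the knockout array, against 68.1% and 48.0% on the control array.

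The wider list of calcium handling genes gave 2 calls in the 5 comparisons. Of 84 listed, 74 were on the array, and 0 of 65 detected were called in the knockout response, 0 of 67 in the control response and 0 of 64 in their difference, beside 1.52%, 1.15% and 0.889% of all genes. Between the genotypes 0 of 64 were called under CR, beside 2.5% of all genes. Under AL 2 of 66 were called, a share near the 4.36% of all genes, both higher in the knockout heart and named here after their values were seen. They were Srl, the calcium-binding protein sarcalumenin of the store, at 0.67, and Prkar1a, a regulatory subunit of protein kinase A, at 0.82. Under CR they were at 0.33 and 0.50. With channels scaled by their medians Srl was at 0.53 under AL, short of 1.5-fold, and Prkar1a at 0.69. With the local background subtracted Srl was at 0.19 and Prkar1a at -0.43. The medians of the list were -0.02 in the knockout response, 0.01 in the control response and 0.02 in the difference.

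Genes of uptake, store and release other than the 10 were lower with CR in 18 of 21 detected in the knockout pair (median -0.07) and in 12 of 20 in the control pair (median -0.04). Over all genes 50.1% were higher with CR in the knockout and 51.4% in the control pair. The largest value of the list belonged to Fkbp1a, an immunophilin that binds ryanodine receptors, at -0.45 in the knockout pair (named after its value was seen, as is Cacna2d1). Kinases, phosphatases and adrenergic genes were higher with CR in 14 of 21 in the knockout pair (median 0.05) and in 13 of 22 in the control pair (median 0.02). Calcium channel subunits were higher in 6 of 9 and 6 of 10 (medians 0.08 and 0.01), and Cacna2d1, which carries the channel to the membrane, was at 0.37 and 0.10, or -0.19 and 0.20 with the local background subtracted. Genes of extrusion were lower in 5 of 7 and 4 of 7 (medians -0.05 and -0.01), and genes of mitochondrial calcium uptake higher in 3 of 5 and 3 of 5 (medians 0.03 and 0.07).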

How the data were processed

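The deposited scanner files hold spot intensity (median brightness per spot and dye) and the brightness around each spot, per the file headers, which also give line fits joining scans at 3 gains. The scanner software was not named in any source used. The log2 values deposited by the authors are normalized ratios with CR as numerator, per the labels. Taking log2 of blank-subtracted signals and removing 0.144 (knockout) and 0.359 (control array) gave 16555 of 16556 and 17405 of 17406 of them within 0.001, which settles scale, centring and direction. Their column medians were 8.079e-05 and -2.885e-06.

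Intensities were corrected with normexp (offset 50) on the spot signal without local background and normalized by loess within arrays, with limma 3.58.1 in R 4.3.3. Channels were compared between arrays after Aquantile normalization. Detection took the mean of 2736 blank spots, trimmed by 5% at each end, plus 2 SD. Control spots had no weight in the loess, and a spot the scanner had marked counted as not detected. Of 23473 probes, 16631 carried a symbol, 12622 current, 3947 updated through GRCm38.p6 synonyms and 62 unmatched; the brightest probe stood for a gene. The procedure was tested on simulated arrays. Named genes were the 10 members, the other RGK GTPases, the 6 genes most like Rrad and other calcium handling genes past 1.5-fold in the difference or in both genotype comparisons, of which there were none. Markers were given by counts and sums, and some single ones were named, not all of which ran with a member. Srl, Prkar1a, Fkbp1a and Cacna2d1 were named after their values were seen. Members, lists and settings, the use of the local background included, were chosen with earlier results of these data known. Precision is limited by the number of arrays. The settings tried were a normexp offset of 0, subtraction of the local background or of the blank mean, loess within blocks, median centring, median scaling of channels, the authors' ratios, the mean of all probes, no detection filter and a call at 2-fold.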

Additional observations from a re-analysis of the deposited data

Results flagged for a closer look

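Rrad, Casq2 and Pln had responses to restriction of opposite direction in the single knockout pair and the single control pair, and none of these differences was tested. For Rrad the difference, knockout minus control, was -2.13, from values of -1.63 and 0.50. For Casq2 it was -0.29 (-0.16 and 0.13), and for Pln 0.23 (0.14 and -0.09). The values of Casq2 and Pln were short of 1.5-fold in each pair. With the local background subtracted the responses ran the same way in both pairs for Rrad (0.43 and 0.83) and Casq2 (0.52 and 0.18). In the authors' deposited table Casq2 ran the same way in both pairs (-0.13 and -0.02).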

How the results depend on the processing

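No paired analysis was possible because each genotype had 1 array and no test was made. Subtracting the local background changed the most: Rrad was at 0.43 in the knockout response, -0.40 in the difference, -1.90 under AL and -2.30 under CR, and Atp2a2 at 4.77 in the knockout response. Members called were then 1 in the knockout response (Atp2a2), 1 in the control response (Rrad), 3 in the difference, 6 under AL and 6 under CR, in place of 2, 0, 1, 1 and 1. With median centring 1 was called in the knockout response and 1 in the control response (Rrad, at 0.60). Loess within blocks left 1 in the knockout response. With a normexp offset of 0 there were 2 under AL and 2 under CR, and with the blank mean subtracted 3 and 2. At 2-fold 1 was called in the knockout response and 0 under CR. The cause of these shifts was not tested. No other setting run moved the value of a detected member by 1.5-fold or more.

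Over all genes, those called numbered 184, 146, 104, 557 and 299 in the knockout response, control response, difference, AL and CR comparison. They were 806, 766, 820, 1560 and 1297 with an offset of 0, 422, 289, 637, 2456 and 2579 with the local background subtracted, and 1588, 1576, 1576, 2375 and 2151 with the blank mean subtracted. The authors' ratios gave 1682, 1687 and 1555 for the first 3, and median centring 234 in the control response. The share of calls that were higher was 70.5% in the control response and 42.3% in the difference, or 89.3% and 25.6% with median centring. It was 59.4% (AL) and 57.5% (CR) between the genotypes, or 35.5% and 26.5% with median scaling. Low signal over the blanks limits Cacna1c, Slc8a1 and Sln.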
